A study of Homo sapiens with 4 samples.

Results

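The EPHA receptors were the 9 genes EPHA1, EPHA2, EPHA3, EPHA4, EPHA5, EPHA6, EPHA7, EPHA8 and EPHA10 among the 26364 genes of the count table. They were taken by name as a gene family, which was chosen on the difference of EPHA5 between the cell clones. Levels between the clones are therefore described without a test, and the response to estradiol, which the choice did not use, was tested. RNA was sequenced from Ishikawa cells, a human endometrial adenocarcinoma line, whose ESR1 gene for estrogen receptor alpha carried the Y537S mutation, so every library came from mutant cells. The cells spent at least 5 days in medium depleted of hormones and then received, for 8 h, 10 nM of the hormone estradiol (E2) or the vehicle alone, 0.1% DMSO. The labels name 2 mutant clones, each of which gave 1 DMSO and 1 E2 library, which makes 2 libraries per treatment. Column names carried the tags A4 and B212 in place of clone numbers, so libraries are named here by tag and treatment, and each tag stands for 1 clone.

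Eph receptors are receptor tyrosine kinases that bind ephrins on the surface of neighbouring cells. The A class binds mainly the ephrin-A ligands, which are anchored to the membrane by a lipid, and the B class binds mainly the transmembrane ephrin-B ligands. Binding signals into both cells and governs adhesion, repulsion and the sorting of cells at tissue borders. EPHA1 and EPHA2 are known from epithelia, and the other A receptors were described mostly in the developing nervous system.

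The 4 libraries held 71575816 to 85222856 counts. All 9 epithelial markers passed the count filter, with a summed level of 2270 to 2409 CPM (counts scaled to a common library size) in A4 and 2803 to 3073 CPM in B212. Of these 9, 6 were called higher in B212 by edgeR and 0 lower, beside 25.2% of all genes called higher and 25.8% lower. The largest log2 fold change was that of CLDN4 (1.28). Summed stromal markers, 6 genes of which COL1A1 was the most abundant, reached 94.8 to 130.4 CPM in A4 and 38.0 to 46.0 CPM in B212. DCN and LUM had at most 5 counts in a library. Of the 3 stromal markers tested, COL1A1 and COL3A1 had log2 fold changes of -1.51 and -2.40 (B212 minus A4), and THY1 was higher in B212 by 1.36. Endothelial and immune markers summed to at most 5.11 and 2.51 CPM, with PECAM1 and CD3E at 0 in every library. Of the 4 markers in each of these lists, 2 passed the filter. They were VWF (167 to 372 counts in a library) and KDR (16 to 52), and CD68 (92 to 176) and PTPRC (25 to 37). The 5 neural markers summed to 143.65 to 162.0 CPM in A4 and 155.46 to 186.15 CPM in B212. Nearly all of this was MAP2, with 11371 to 15862 counts in a library. SOX10, RBFOX3 and GFAP had at most 10 counts in every library, and MAP2 and SYP passed the filter. The part of the epithelial and stromal marker levels in the differences between tags was not tested. ESR1 had 109.9 (A4) and 107.4 (B212) CPM with DMSO and 97.0 (A4) and 86.5 (B212) CPM with E2. Its log2 fold change with E2 was -0.24 with no term for the tag (edgeR adjusted p = 0.9999) and -0.25 ± 0.070 (SE) with the tag as a block (edgeR adjusted p = 0.0330), and it was not called once length and GC content were corrected for (edgeR adjusted p = 0.0954).

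EPHA5, a receptor of axon guidance that is also known from insulin-secreting cells, was abundant in A4 and nearly absent in B212. It had 6674 counts (91.1 CPM) in A4 with DMSO and 6526 counts (79.6 CPM) in A4 with E2. In B212 it had 57 counts (0.668 CPM) with DMSO and 36 counts (0.491 CPM) with E2. Both A4 libraries thus lay far above both B212 libraries, whatever the treatment. The mean level was 147.3-fold higher in A4. On summed counts and library sizes the ratio was 145.0, with a 95% interval from counting error of 118.3 to 179.8. As log2 CPM, B212 minus A4 was -7.04 with DMSO and -7.27 with E2. Of the 15599 genes tested, 24 differed between the tags by at least as much in either direction, EPHA5 included. In these bulk samples, fewer cells with a transcript and less transcript per cell cannot be told apart.

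**Figure D1:**
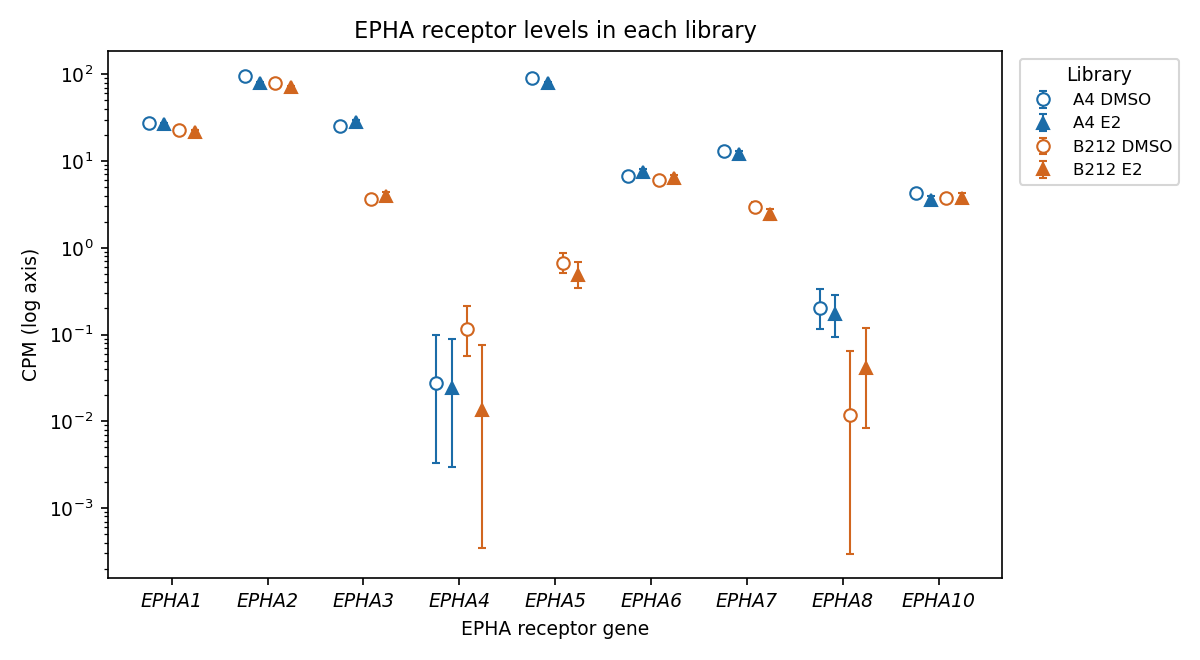
CPM of the 9 EPHA receptors on a log axis in the A4 (blue) and B212 (orange) libraries with DMSO (open circles) and E2 (filled triangles), with bars for the 95% exact Poisson interval of counting error. EPHA5, EPHA3 and EPHA7 sit lower in both B212 libraries, with EPHA5 at 0.491 to 0.668 CPM there against 79.6 to 91.1 CPM in A4.

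The antisense transcript EPHA5-AS1, whose gene overlaps the start of EPHA5 on the other strand, was also higher in both A4 libraries than in both B212 libraries. It had 161 and 262 counts in A4 with DMSO and E2, and 2 and 7 counts in B212. Between the treatments the order was not that of EPHA5. The log2 CPM differences of EPHA5-AS1 between E2 and DMSO were 0.53 in A4 and 1.31 in B212. Those of EPHA5 were -0.20 and -0.42. With the tag as a block, EPHA5-AS1 was not called for E2 (edgeR adjusted p = 0.131). The mean level was 45.3-fold higher in A4. On summed counts and library sizes the ratio was 48.0, with a counting interval of 25.1 to 105.75. EPHA5-AS1 passed the count filter through its A4 libraries. In GENCODE 29 the 2 genes overlap by 535 bases, and the strand setting of the counting is not given in the sources used here, so reads from the overlap cannot be assigned with certainty.

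The next genes along the chromosome were compared in the same way. On the lower side in the gene order, ADGRL3 and IGFBP7 were higher in B212, with log2 fold changes of 0.74 ± 0.098 (SE) and 1.40 ± 0.20 (SE) and adjusted p-values of 3.19e-06 and 1.05e-05 by edgeR's quasi-likelihood test. POLR2B beyond them differed by -0.13 ± 0.070 and was not called (edgeR adjusted p = 0.133). On the higher side, LOC101927237 had 2 to 16 counts in a library and CENPC differed by 0.14 ± 0.079 (edgeR adjusted p = 0.153). Of these 7 genes, EPHA5 and EPHA5-AS1 were 147.3-fold and 45.3-fold lower in B212, and of the other 5, 0 were called lower there (25.8% of all genes) and 2 higher (25.2% of all genes).

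**Figure D2:**
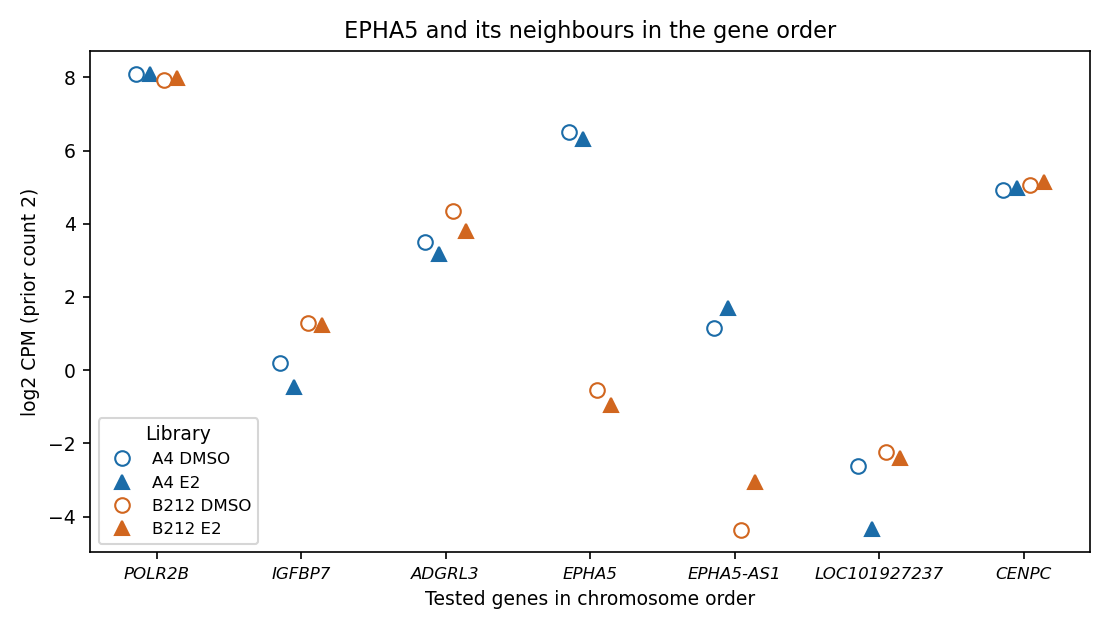
Log2 CPM (prior count 2) of EPHA5 and the 3 nearest tested genes on each side, in chromosome order and not to distance, for each library. The blue A4 points of EPHA5 and EPHA5-AS1 stand apart from the orange B212 points, while the points of CENPC and POLR2B lie close together.

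EPHA3 and EPHA7 were lower in B212 as well, by smaller factors. EPHA3, a receptor of axon guidance and heart development, had 1861 and 2324 counts in A4 (25.4 and 28.3 CPM with DMSO and E2). In B212 it had 310 and 290 counts (3.63 and 3.96 CPM). Its mean level was 7.08-fold higher in A4. EPHA7, which acts in cortical development, had 960 and 995 counts in A4 (13.1 and 12.1 CPM with DMSO and E2) and 251 and 178 counts in B212 (2.94 and 2.43 CPM), a ratio of 4.70. For both genes the A4 and B212 libraries did not overlap, which was so for 67.5% of all genes tested. EPHA3 and EPHA6 lie on chromosome 3, EPHA5 on chromosome 4 and EPHA7 on chromosome 6. The nearest tested neighbours of EPHA3 were C3orf38, which differed by -0.087 between the tags (log2 fold change, B212 minus A4), and PROS1, which was higher in B212 by 0.72. Those of EPHA7, MAP3K7 and MANEA, differed by -0.12 and 0.0072.

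The upstream sequences of these 3 genes and of EPHA2, the most abundant member per kilobase of transcript, are shown. The reason is that the first 3 differed between the tags and EPHA2 differed little. The sequences come from RefSeq, build GRCh38.p14, and run 5′ to 3′ on the gene's strand up to the first annotated start. The positions are chr4:65670496-65670739 (minus strand) for EPHA5, chr3:89107371-89107523 (plus) for EPHA3, chr6:93419560-93419809 (minus) for EPHA7 and chr1:16156088-16156319 (minus) for EPHA2. Capitals mark Sp1 boxes (GGGCGG or its reverse complement) and a cyclic AMP response element (TGACGTCA).
EPHA5: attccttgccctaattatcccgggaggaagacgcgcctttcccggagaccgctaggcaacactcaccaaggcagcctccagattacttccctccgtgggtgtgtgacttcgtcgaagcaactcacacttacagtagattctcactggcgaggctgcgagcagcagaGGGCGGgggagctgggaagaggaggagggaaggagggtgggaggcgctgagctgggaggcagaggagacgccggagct
EPHA3: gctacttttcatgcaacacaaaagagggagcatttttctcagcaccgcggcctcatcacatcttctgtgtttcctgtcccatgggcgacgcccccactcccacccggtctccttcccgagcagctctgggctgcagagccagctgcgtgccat
EPHA7: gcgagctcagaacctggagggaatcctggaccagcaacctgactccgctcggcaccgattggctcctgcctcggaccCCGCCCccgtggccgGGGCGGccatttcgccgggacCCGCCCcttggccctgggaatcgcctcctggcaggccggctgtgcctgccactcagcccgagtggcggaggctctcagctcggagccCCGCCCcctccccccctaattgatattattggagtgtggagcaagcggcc
EPHA2: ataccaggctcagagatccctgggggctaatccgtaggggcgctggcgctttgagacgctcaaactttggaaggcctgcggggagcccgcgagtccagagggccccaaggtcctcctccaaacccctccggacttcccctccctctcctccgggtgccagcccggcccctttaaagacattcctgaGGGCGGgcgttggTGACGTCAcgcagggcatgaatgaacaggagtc

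A window of 300 bases, 250 before the RefSeq start and 50 after it, was searched on both strands for 8 members, with 1 window per gene. EPHA10 had no entry. An estrogen response element (GGTCA and TGACC separated by 3 bases of any kind) was in none of the 8 windows and in 0.0659% of the 27305 windows of all genes. One arm of it (GGTCA, which overlaps the full element) was in the EPHA1 window alone of the 8, and in 37.7% of all windows. An Sp1 box was in the windows of EPHA1, EPHA2, EPHA4, EPHA5, EPHA6, EPHA7 and EPHA8 and in 44.6% of all windows. EPHA1 held 5, EPHA6 and EPHA7 4 each, EPHA8 2, EPHA2, EPHA4 and EPHA5 1 each, and EPHA3 0. The cyclic AMP response element was in the EPHA2 window alone of the 8, and in 1.98% of all windows. An AP-1 site (TGANTCA, 7.76% of all windows) and a TATA box (TATAAA, 12.0%) were in none of the 8. The windows held 12 (EPHA4), 17 (EPHA3), 19 (EPHA5), 20 (EPHA2), 21 (EPHA1), 24 (EPHA7), 30 (EPHA6) and 51 (EPHA8) CpG dinucleotides. The median over all windows was 14. Of all windows, 54.0% held fewer than EPHA3, 57.0% fewer than EPHA5 and 66.3% fewer than EPHA7. A match or its absence describes these letters and no factor or its binding.

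Per kilobase of transcript, EPHA2 was the most abundant EPHA receptor in every library. In CPM alone, EPHA5 (79.6) was just above EPHA2 (79.3) in A4 with E2. EPHA2, a receptor of epithelial cells, restrains growth when bound by ephrin-A1. It had 7066 and 6508 counts in A4 (96.5 and 79.3 CPM with DMSO and E2). In B212 it had 6712 and 5270 counts (78.6 and 71.9 CPM). The tags did not overlap, which was so for 67.5% of all genes tested. The lower A4 library (79.3 CPM) and the higher B212 library (78.6 CPM) were almost level, and the A4 mean was 1.17-fold higher. Of the 32-base words of the EPHA2 transcript, 29 (0.737%) also occur in EPHB2. No such word of the other 8 members occurs in the transcripts of another gene. Reverse complements were not searched, so the overlap of EPHA5 with EPHA5-AS1 is outside this search. In the sense direction, these transcripts can be told apart over almost their whole length.

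EPHA1, the first Eph receptor to be found and another epithelial member, had 27.7 and 26.5 CPM in A4 (DMSO and E2) and 22.5 and 21.6 CPM in B212. EPHA6, known from brain and retina, had 6.73 and 7.37 CPM in A4 and 5.98 and 6.37 CPM in B212. The libraries of the tags did not overlap for either gene (67.5% of all genes tested), with ratios of 1.23 and 1.14. EPHA10, which has lost kinase activity, had 4.31 and 3.55 CPM in A4 and 3.77 and 3.77 CPM in B212. Its tags overlapped, and the sign of its mean tag difference depended on scaling, with a log2 CPM difference of -0.054 here and 0.013 with library sizes alone.

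EPHA8 and EPHA4 were close to the limit of detection. EPHA8, a receptor of the developing midbrain, had 15 and 14 counts in A4 with DMSO and E2 and 1 and 3 counts in B212, a ratio of 7.41 on the summed counts with a counting interval of 2.601 to 29.001. It passed the count filter through its A4 libraries. EPHA4, an axon guidance receptor that binds both ephrin classes, had 2 and 2 counts in A4 and 10 and 1 in B212. It was the single member below the count filter and was not tested. Its ratio of A4 to B212 on the summed counts was 0.372 with a counting interval of 0.0863 to 1.25, and no direction is read from it.

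In the fit over all genes, 4 of the 8 members tested (EPHA3, EPHA5, EPHA7 and EPHA8) were lower in B212 by at least 1 on the log2 scale, and none was higher by that much. Over all 15599 genes, 4.11% were lower and 7.60% higher by at least 1. In 7 of the 8, both B212 libraries lay below both A4 libraries, which was so for 32.8% of all genes (34.7% had B212 above A4, and 67.5% did not overlap in either direction). The median of the 8 was -1.26, beside 0.0042 over all genes tested. The members were chosen with this contrast known, and nothing is read from these counts.

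Levels of different genes were compared per kilobase of transcript. In A4 with DMSO the order was EPHA2 (24.3 CPM per kb), EPHA5 (10.8), EPHA1 (8.23), EPHA3 (4.37), EPHA7 (1.99), EPHA6 (1.70), EPHA10 (0.795), EPHA8 (0.0414) and EPHA4 (0.0043). In A4 with E2, EPHA6 (1.86) and EPHA7 (1.84) changed places, so the order of these neighbours was not the same in both A4 libraries. In B212 with DMSO the order was EPHA2 (19.8), EPHA1 (6.70), EPHA6 (1.505), EPHA10 (0.695), EPHA3 (0.625), EPHA7 (0.446), EPHA5 (0.0793), EPHA4 (0.0185) and EPHA8 (0.0024). In B212 with E2, EPHA10 (0.694) and EPHA3 (0.681) were closer still, and EPHA4 and EPHA8 changed places.

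EPHA2 supplied 46.5% and 43.0% of the summed level of the 9 genes in the A4 libraries and 66.3% and 64.8% in the B212 libraries. EPHA5 supplied 20.7% and 20.3% in A4 and 0.265% and 0.208% in B212. Its rank went from second in A4 to seventh in B212. The summed level was 52.3 and 46.6 CPM per kb in A4 with DMSO and E2 and 29.9 and 28.0 in B212, so the sum was lower in B212 by more than the difference between treatments. With the coding length in place of the transcript length, EPHA5 took 33.2% and 32.4% in A4 and EPHA3 overtook EPHA1 in A4 with E2. There EPHA7 (4.05 CPM per kb of coding sequence) also came ahead of EPHA6 (2.18), and in B212 with E2 EPHA3 (1.34) came ahead of EPHA10 (1.24).

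**Figure D3:**
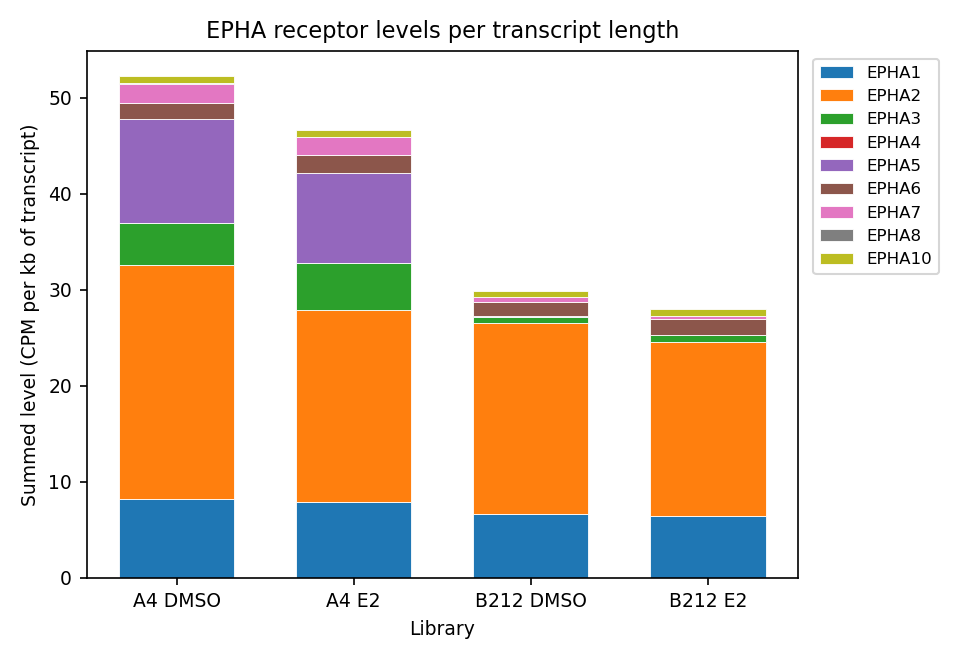
Stacked levels of the 9 EPHA receptors in CPM per kilobase of transcript in each of the 4 libraries, with 1 colour per gene. The purple EPHA5 block is 10.8 and 9.45 CPM per kb high in A4 and at most 0.0793 in B212, and the orange EPHA2 block leads in every library.

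Whether E2 changed the EPHA receptors was asked next. None of the 8 members tested was called. With no term for the tag, the quasi-likelihood test of edgeR found 0 changed genes among 15599 (0%, with 150 at an unadjusted p under 0.05), and all 8 members had an adjusted p of 0.9999. The biological coefficient of variation was 32.2% in that fit and 5.99% once the tag was a block. The blocked edgeR fit called 1492 genes (9.56%, with 6.13% higher and 3.44% lower) and 0 of the 8 members (2 at an unadjusted p under 0.05, EPHA2 and EPHA5, beside 25.3% of all genes). After a smooth dependence on length and GC content was taken out of each library as well, edgeR called 781 genes (5.01%, with 3.18% higher and 1.83% lower) and again 0 of the 8. The median log2 fold change of the 8 was -0.10 with no block and with the block, beside -0.0081 over all genes tested in each, and it turned to 0.030 after the length and GC correction. Of the 8 members, 5 were lower with E2 in both tags, 2 were higher in both and 1 had values of opposite sign, against 36.8%, 33.3% and 29.8% of all genes. Both E2 libraries lay below both DMSO libraries for 1 of the 8, EPHA10 (11.8% of all genes), and above them for 0 of the 8 (13.2% of all genes).

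EPHA2 had log2 CPM differences between E2 and DMSO of -0.28 in A4 and -0.13 in B212, each from 1 pair of libraries. The blocked log2 fold change was -0.21 ± 0.072 (SE, edgeR adjusted p = 0.0740), so it was not called. Scaled by library size only, the blocked fit gave -0.23 and an edgeR adjusted p of 0.0473. After the dependence on length and GC content was taken out, the value was -0.083 and the edgeR adjusted p 0.419. The choice of scaling therefore decided on which side of the threshold EPHA2 fell.

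EPHA5 had log2 CPM differences of -0.20 in A4 and -0.42 in B212. The counting interval of the B212 value, -1.09 to 0.18, included 0. The blocked log2 fold change was -0.22 ± 0.10 (SE, edgeR adjusted p = 0.165). EPHA7 had values of -0.11 and -0.27 in A4 and B212, and a blocked fold change of -0.18 ± 0.12 (edgeR adjusted p = 0.370). EPHA10 had -0.28 and -0.0029, and -0.14 ± 0.14 with the block (edgeR adjusted p = 0.558). EPHA1 had -0.064 and -0.058, and -0.061 ± 0.082 with the block (edgeR adjusted p = 0.692). With the trend removed, the EPHA1 and EPHA10 values were 0.038 and 0.022.

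EPHA3 and EPHA6 had positive values in both tags. EPHA3 had log2 CPM differences of 0.16 in A4 and 0.12 in B212, and a blocked fold change of 0.14 ± 0.098 (edgeR adjusted p = 0.379). EPHA6 had 0.13 and 0.092, and 0.11 ± 0.11 with the block (edgeR adjusted p = 0.582). EPHA8 had -0.23 in A4 and 0.84 in B212, from at most 15 counts in a library, and 0.026 ± 0.63 with the block (edgeR adjusted p = 0.984). For all 8 members the blocked value lay between -0.22 (EPHA5) and 0.14 (EPHA3).

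**Figure D4:**
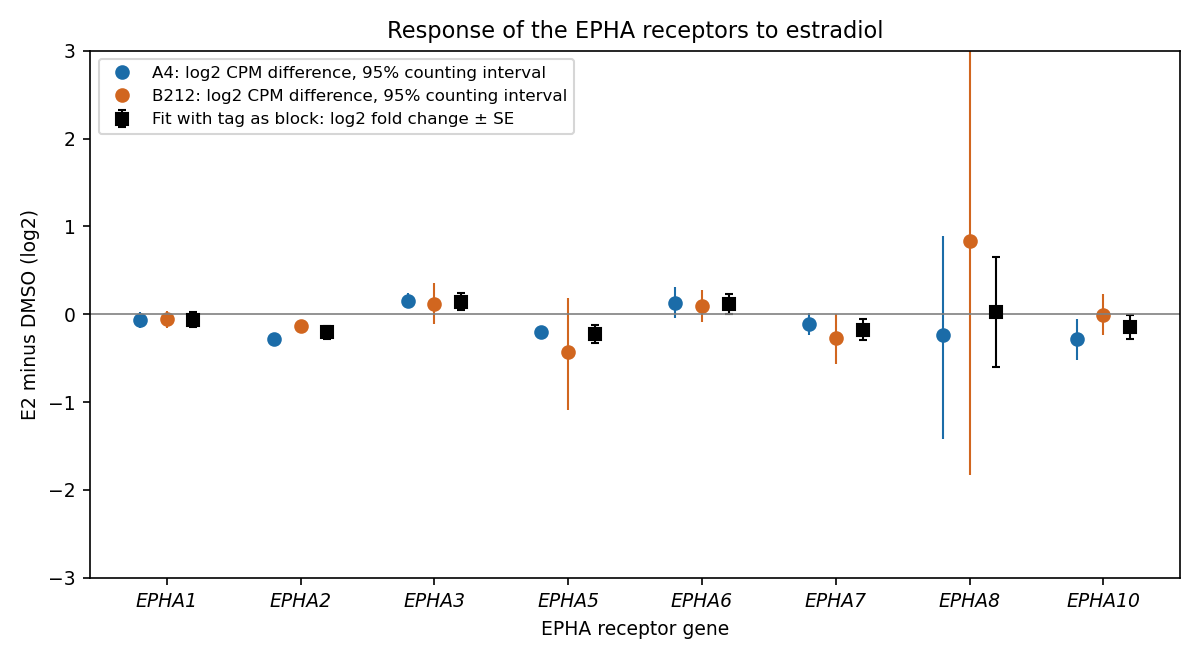
E2 minus DMSO on the log2 scale for the 8 EPHA receptors tested: log2 CPM differences in A4 (blue) and B212 (orange) with 95% intervals of counting error, and the log2 fold change with the tag as a block with its SE (black squares). Most points lie within 0.5 of 0, and the B212 interval of EPHA8 runs past the upper end of the axis, to 7.52.

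The ephrin ligands and EPHB receptors were compared in the same fits. EFNA5, a ligand of EPHA5 and most other A receptors, was the most abundant ligand, with 191.9 and 171.3 CPM in A4 (DMSO and E2) and 253.1 and 242.7 CPM in B212. The log2 fold change, higher in B212, was 0.45 ± 0.070 (SE, edgeR adjusted p = 2.20e-05). EFNA2 was higher by 1.27 ± 0.13 (SE), with 2.89 and 2.69 CPM in A4 and 6.62 and 6.82 CPM in B212 (edgeR adjusted p = 1.14e-07). EFNA1, EFNA3 and EFNA4 were not called, with values of -0.027, 0.25 and -0.11. So 2 of 5 ephrin-A ligands were called, both higher in B212, beside 25.2% of all genes called higher and 25.8% called lower. Per kilobase the ephrin-A ligands summed to 54.7 and 52.0 CPM in A4 and 70.9 and 68.6 in B212.

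Of the ephrin-B ligands, EFNB3 was higher in B212 by 0.27 ± 0.099 (log2 fold change, SE) and EFNB1 was lower, with -0.35 ± 0.10 (SE), and their edgeR adjusted p-values were 0.0295 and 0.00699. EFNB2, a ligand of vessels and of border formation, was not called, with -0.094. Of 5 EPHB receptors, EPHB2, EPHB3 and EPHB4 were called lower in B212 and EPHB6, which lacks kinase activity, was called higher. Beside both lists, 25.8% of all genes were called lower in B212 and 25.2% higher. EPHB2 had 106.0 and 84.5 CPM in A4 and 39.3 and 32.5 CPM in B212, a log2 fold change of -1.41 ± 0.074 (SE, edgeR adjusted p = 3.11e-12). It is also the nearest tested neighbour of EPHA8 on the side of higher coordinates. EPHB3 and EPHB4 had log2 fold changes of -0.63 ± 0.098 and -0.33 ± 0.097, and EPHB6 one of 1.30 ± 0.14 (SE). EPHB1 had 6 to 15 counts in a library and was not called.

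**Figure D5:**
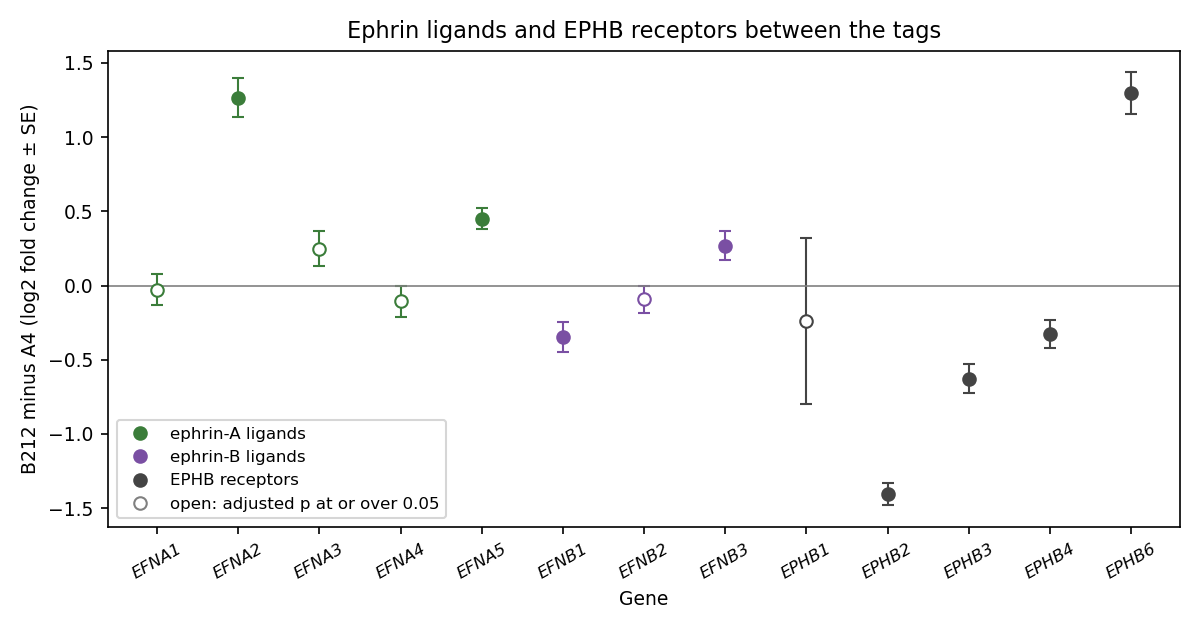
Log2 fold change between the tags (B212 minus A4, treatment as a covariate, edgeR) with its SE for 5 ephrin-A ligands, 3 ephrin-B ligands and 5 EPHB receptors, with filled points for adjusted p under 0.05. EFNA2 and EPHB6 lie highest, at 1.27 and 1.30, and EPHB2 lowest, at -1.41.

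With E2, none of the 8 ephrin ligands was called in either fit (edgeR, 0 at an unadjusted p under 0.05 in each). EPHB2 and EPHB6 were called lower in the blocked fit, with log2 fold changes of -0.30 ± 0.072 and -0.46 ± 0.14 (SE) and edgeR adjusted p-values of 0.0141 and 0.0424, beside 3.44% of all genes called lower. Scaled by DESeq2 size factors, the blocked fit did not call EPHB6 (edgeR adjusted p = 0.0659). With no block neither was called (adjusted p = 0.9999 by edgeR). After the dependence on length and GC content was taken out, the values were -0.14 and -0.34 and neither was called (edgeR adjusted p = 0.180 and 0.148). The direction was lower in both tags for each gene.

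A list of 40 genes that act with Eph receptors held adaptors, exchange factors, kinases, phosphatases and the protease ADAM10, and 37 passed the filter. The blocked edgeR fit called 2 of them for E2, 1 in each direction, beside 9.56% of all genes. NCK1, an adaptor that links receptors to actin, rose by 0.33 ± 0.076 (log2, SE, edgeR adjusted p = 0.0117), and its value was 0.13 with the trend removed (edgeR adjusted p = 0.226). ADAM10, which sheds ephrins and Eph receptors from the cell surface, went from 610.5 to 506.7 CPM in A4 and from 516.1 to 412.0 CPM in B212. The blocked log2 fold change was -0.30 ± 0.072 (SE, edgeR adjusted p = 0.0141). With the trend removed it was -0.32 (edgeR adjusted p = 0.00502), so ADAM10 passed under both. That fit called 2 of the 37, both lower, the other being SDCBP, which codes for the ephrin-B binding adaptor syntenin, at -0.23 (edgeR adjusted p = 0.0234). SDCBP had -0.15 and was not called in the fit with the block alone (edgeR adjusted p = 0.172). With no block none of these 3 genes was called.

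Between the tags, 11 of the 37 were called higher in B212 and 12 lower, and 14 were not called, beside 51.0% of all genes called in either direction. CHN2, which codes for beta-chimaerin, an inhibitor of the GTPase Rac, was higher by 2.37 ± 0.18 (log2, SE). CHN1, which codes for alpha-chimaerin, a Rac inhibitor downstream of EPHA4, differed by -1.23 ± 0.088 (SE). These 2 relatives thus went in opposite directions, with edgeR adjusted p-values of 1.61e-09 and 4.42e-10. TIAM1, an activator of Rac, and INPPL1, a lipid phosphatase that binds EPHA2, were higher by 0.99 ± 0.093 and 0.69 ± 0.083. SH2D3A, an adaptor, differed by -0.74 ± 0.11. The edgeR adjusted p-values of TIAM1, INPPL1 and SH2D3A were 2.89e-08, 7.99e-07 and 9.13e-06. PTPRO, a phosphatase of Eph receptors, differed by -2.23 ± 0.73, from 11 and 18 counts in A4 and 0 and 6 in B212. PTPRO passed the count filter through its A4 libraries alone, so nothing is read from its place among the 12 called lower.

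The 5 genes with the pattern over the 4 libraries most like that of EPHA5 were PLA2G16, ZNF462, PCDHAC1, NRG1 and GJA1. Likeness was the Euclidean distance between centred log2 CPM values, taken over genes with a mean of at least 50 counts, and it ranged from 0.502 (PLA2G16) to 0.996 (GJA1). GJA1, a connexin of gap junctions, had 29816 and 37808 counts in A4 and 420 and 432 counts in B212. NRG1, a ligand of ERBB receptors, had 1821 and 1576 counts in A4 and 21 and 19 in B212. PCDHAC1, of the clustered protocadherins, had 167 and 160 counts in A4 and 0 in both B212 libraries. With 2 libraries per tag, this likeness is mostly the difference between the tags.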

How the data were processed

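RNA-seq read counts were analysed for 4 libraries, 2 with DMSO and 2 with E2. Per the labels, 500 ng of RNA went into each stranded poly(A) library. The deposited values were raw counts per gene symbol, and the submitters' processing notes name HISAT2, SAMtools, featureCounts, DESeq2 and build hg19. Another 4 columns of per-sample values were not used. Genes were kept by filterByExpr of edgeR 4.0.16 (minimum count 10), which left 15599 genes, and scaled by TMM. E2 was tested by edgeR's quasi-likelihood test with Benjamini-Hochberg adjustment over all genes and a threshold of 0.05, without and with the tag as a block, and the tags were compared with treatment as a covariate. Each SE is the absolute fold change divided by the square root of F. Log2 CPM used a prior count of 2, and differences on it understate changes of low genes.

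Same-tag libraries deviated together from their treatment means (Pearson r = 0.871 across genes, a single independent value), and the labels give each clone 1 library per treatment, so blocked values are printed where they change a call. The pairing itself rests on the column names. With no block, p-values measure the spread between the 2 libraries of a treatment. In the blocked fits and the comparison of the tags, they measure what remains once tag and treatment are both fitted. As each tag is 1 clone with 1 library per treatment, the latter do not measure the spread between clones or repeated cultures. Counts were simulated for 15599 genes with tag differences as measured and 200 genes changed by 1 on the log2 scale. The fit with no block recovered 0 and the blocked fit 199, with 7 false calls. The simulated spread was set near that of the blocked fit, and the E2 change was the same in both tags. Changed genes had a mean of at least 50 counts. The simulation therefore says nothing of smaller changes or of tags that respond differently. The trend on length and GC content was fitted with mgcv 1.9.3 for the 93.6% of tested genes with a GENCODE 29 transcript (the longest, coding preferred), and DESeq2 1.42.0 served as an alternative. Gene order came from RefSeq (GRCh38.p14), whose symbols matched 91.6% of the tested genes. Counting intervals (95%, exact Poisson for levels, exact binomial for ratios) cover counting error only. Members and lists were chosen with earlier results of these data known. Named were all 9 members, the ligands and EPHB receptors, the listed Eph signalling genes called for E2 and the 3 called with the largest tag difference in each direction, the 5 genes most like EPHA5, the nearest tested neighbours, and ESR1. SDCBP and single marker genes were named after their values were seen. R 4.3.3 and Python 3.11.15 were used.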

Additional observations from a re-analysis of the deposited data

Results flagged for a closer look

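The E2 response was compared between A4 and B212 for 24 genes, namely the EPHA receptors tested, the ephrins, the EPHB receptors, NCK1, ADAM10 and ESR1, and 6 of them had values of opposite sign. The difference in response was not tested, because a tag and treatment had a single library, and 29.8% of all genes tested had values of opposite sign. EPHA8 had a log2 CPM difference of -0.23 in A4 and 0.84 in B212, which differ by 1.07, from at most 15 counts in a library. EPHB1 had 0.63 in A4 and -0.82 in B212, B212 minus A4 being -1.45, from at most 15 counts. EPHB4 had -0.20 and 0.16, a difference of 0.37. EFNA4 had 0.15 and -0.11, a difference of -0.26. EFNB1 had -0.19 and 0.017, a difference of 0.20, and EFNA2 had -0.10 and 0.043, a difference of 0.15.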

How the results depend on the processing

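In the 5 alternatives with the tag as a replicate block, 1 of 36 member values with an adjusted p was called for E2, EPHA2 with library size only, an alternative chosen after seeing the data. With no block the E2 count was 0 except with DESeq2, which called 1 gene, so those fits say nothing of the members. The replicate block gave 1492 genes, 533 with DESeq2, 781 with the length and GC trend removed, 717 with DESeq2 size factors (added after seeing the data) and 1686 with library size only (added likewise, 911 higher and 775 lower against 956 and 536). The block takes the tag difference out of the residual spread. The member median of -0.10 became 0.030 with the block and trend, and -0.81 to 0.76 when single libraries were left out, where tags become unbalanced. The tag count of 7950 (3927 higher, 4023 lower) was 4456 with no treatment term, 3203 to 5754 without single libraries, and split into 4761 higher and 3176 lower with library size only. DESeq2 gave no adjusted p for 4 members with the block. Summed levels per coding length were 88.1 and 78.7 (A4) and 40.0 and 37.4 (B212) CPM per kb.

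Log2 fold changes that changed sign were small or rested on the tags. EPHA8 became -0.016 with library size only, -0.032 with DESeq2 and -0.0062 with library size only and the replicate block. With the trend removed and the block, signs changed for EPHA1 (0.038), EPHA10 (0.022), EFNA4 (-0.051), EFNB1 (0.014), EPHB1 (0.038), EPHB3 (0.074) and EPHB4 (0.12); the cause was not tested. Without single libraries, the fits with no block gave ranges of -0.22 to 0.099 (EPHA1), -1.88 to 2.16 (EPHA3), -6.54 to 5.91 (EPHA5), -1.73 to 1.31 (EPHA7) and -1.34 to 3.04 (EPHA8). For the ligands they were -0.82 to 0.70 (EFNA2), -0.26 to 5.8e-04 (EFNA3), -0.099 to 0.14 (EFNA4), -0.38 to 0.12 (EFNA5), -0.32 to 0.15 (EFNB1) and -0.30 to 0.010 (EFNB3). For the EPHB receptors they were -0.74 to 0.41 (EPHB1), -1.16 to 0.58 (EPHB2), -0.41 to 0.29 (EPHB3), -0.29 to 0.24 (EPHB4) and -1.23 to 0.33 (EPHB6). EPHA4, EPHA8 and EPHB1 had at most 15 counts in a library, and their ratios have wide counting intervals.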
